A study of Mus musculus with 15 samples.

Results

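Marrow cells grown into myeloid-derived suppressor cells (MDSC) were compared with mobilised spleen progenitors that had also been cultured, so that both sides of the comparison had left the animal. All cells came from C57Bl/6 mice. The MDSC were bone marrow cells grown in G-CSF, IL-13 and GM-CSF, from which Ly6C+CD11b+ cells were taken, and no G-CSF treatment of the marrow donors is given in the labels. The other group, coded GFE, came from the spleens of mice treated with G-CSF: cells negative for lineage markers (CD4, CD8, Ly6G, B220 and Ter119) and positive for CD11b and CD34 were sorted and then kept for 3 days in StemSpan medium with Flt3 ligand and stem cell factor (SCF). Each group had 3 arrays, so the comparison used 6 of the 15 arrays of the series. The other 9 arrays held such spleen cells without culture, from G-CSF-treated wild-type mice (coded GFW and RB) or iNOS knockout mice (GFK), and their levels are given beside some results. The comparison took every probe set with a single gene symbol and, for each gene, the probe set with the highest mean over the 15 arrays, which gave 22180 genes, of which 14822 passed a filter on low signal and were tested.

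As background, the cytokines of the cultures act through different receptor types. IL-13 signals through IL-4 receptor alpha and IL-13 receptor alpha 1 to STAT6, the route to the alternatively activated macrophage state, and it is added to this kind of marrow culture to raise arginase. GM-CSF signals through a shared beta chain to STAT5 and drives PPAR gamma in macrophages, and G-CSF drives granulocyte production. SCF and Flt3 ligand act on the tyrosine kinases Kit and Flt3, which keep early haematopoietic cells alive and dividing. MDSC are immature monocytic and granulocytic cells defined by their ability to suppress T cells, which an expression array does not measure.

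Signal is given as the authors' log2 RMA value, and a difference is MDSC minus GFE on that scale. Array medians of the 6 arrays lay between 5.52 and 5.61. The Pearson correlation across genes was 0.984 to 0.987 between arrays of the same group and 0.946 to 0.949 between the groups. The labels do not say that the arrays of a group came from separate mice or cultures, so p-values reflect only how far these arrays spread, and that spread may be technical. The title prefix of the MDSC arrays was not that of the GFE arrays, so an effect of whatever it marks and of the group cannot be told apart. The starting tissue, the cytokines and the medium also differed together and cannot be told apart either. In bulk RNA, fewer cells of a type and less RNA per cell cannot be told apart. Where the lower group's mean ranked under the 40th percentile of probe sets, the difference is a lower bound and is written with "at least".

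Over all 14822 genes tested, 2466 (16.6%) were called higher in MDSC and 2796 (18.9%) lower, by limma with a Benjamini-Hochberg adjusted p under 0.05. The median difference of all genes was -0.0035. Calls of at least 2-fold were 784 higher (5.29%) and 791 lower (5.34%). Larger changes leaned to the MDSC side: 256 genes were at least 4-fold higher and 177 lower, and 55 were at least 16-fold higher against 16 lower. The arrays of the groups did not overlap for 7829 genes (52.8%). A lower bound applied to 635 of the 5262 called genes. Only the MDSC arrays carried 175 genes past the filter (75 called higher), and only the GFE arrays carried 268 (219 called lower), so the filter itself favoured a difference in these genes. They made up 6 of the 26 tested members of the IL-4 and IL-13 list below, 3 of the 19 of the chemokine list and at most 2 of any other list. Standard errors of the 407 called genes that belong to the lists below, or to the largest changes, ran from 0.09 to 0.50. Where a gene list below has 0 members called in a direction by limma, 0 of its members had an unadjusted p under 0.05 in that direction either.

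**Figure D1:**
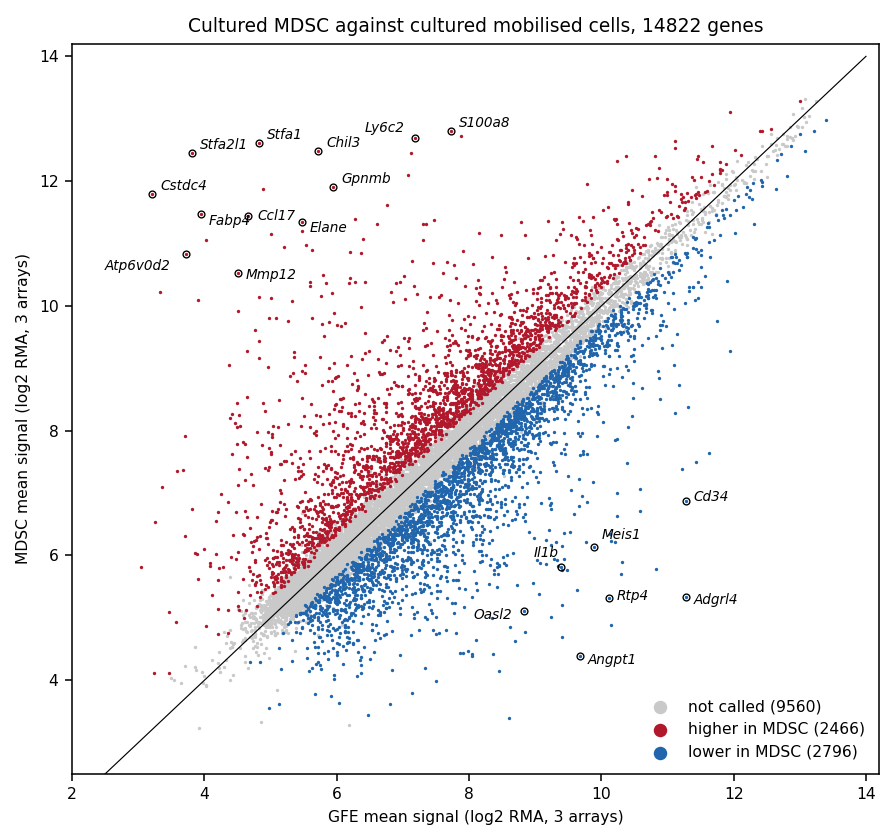
Mean log2 RMA signal of each of the 14822 genes on the 3 MDSC arrays (vertical axis) against the 3 GFE arrays (horizontal axis), with the line of equality. Red points are the 2466 genes called higher in MDSC, blue points the 2796 called lower and grey points the rest, and the genes farthest from the line include stefins and Fabp4 above it and Adgrl4 and Angpt1 below it.

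Surface markers of the sorts separated the groups. Ly6c2, which encodes part of the Ly6C antigen (probe set 17318100, gene 100041546, chromosome 15), read 12.64, 12.68 and 12.75 on the MDSC arrays and 7.71, 6.75 and 7.07 on the GFE arrays. The difference was 5.52 (SE 0.17, adjusted p 1.07e-12), or 45.7-fold, and the near-identical Ly6c1 may share its signal. MDSC had been sorted on Ly6C and GFE cells had not. Uncultured arrays were high for Ly6c2 too, with means of 11.70 (GFW), 12.94 (RB) and 11.53 (GFK), so the GFE arrays alone were low. Itgam, the CD11b chain, read 10.28, 10.30 and 10.37 in MDSC and 7.82, 8.01 and 8.0 in GFE, so the cultured mobilised cells carried 5.19-fold less of the RNA of the antigen they had been sorted on. Its means on uncultured arrays were 11.67 (GFW), 11.38 (RB) and 11.72 (GFK).

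Cd34, a sialomucin of progenitors and endothelium (probe set 17221014, gene 12490, chromosome 1), ran the other way. It read 6.61, 6.83 and 7.20 in MDSC and 11.25, 11.31 and 11.29 in GFE, a difference of -4.41 (SE 0.16, adjusted p 4.45e-12). Uncultured arrays were near the MDSC level, with means of 7.19 (GFW), 5.92 (RB) and 7.27 (GFK), so the GFE arrays alone were high. Adgrl4, an adhesion G protein-coupled receptor of endothelium and stem cells (probe set 17403605, gene 170757, chromosome 3), read 5.49, 5.50 and 5.02 against 11.13, 11.27 and 11.43. It was the gene with the largest difference towards GFE, at least 61.3-fold (adjusted p 3.09e-13).

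Fabp4, a carrier of fatty acids in fat cells and macrophages (probe set 17404091, gene 11770, chromosome 3), read 11.43, 11.54 and 11.46 in MDSC and 3.76, 4.18 and 3.89 in GFE. MDSC were higher by at least 185-fold (difference 7.53, SE 0.23, adjusted p 8.91e-13). The uncultured groups disagreed among themselves, with means of 4.10 (GFW), 7.73 (RB) and 7.68 (GFK), all under the MDSC arrays.

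**Figure D2:**
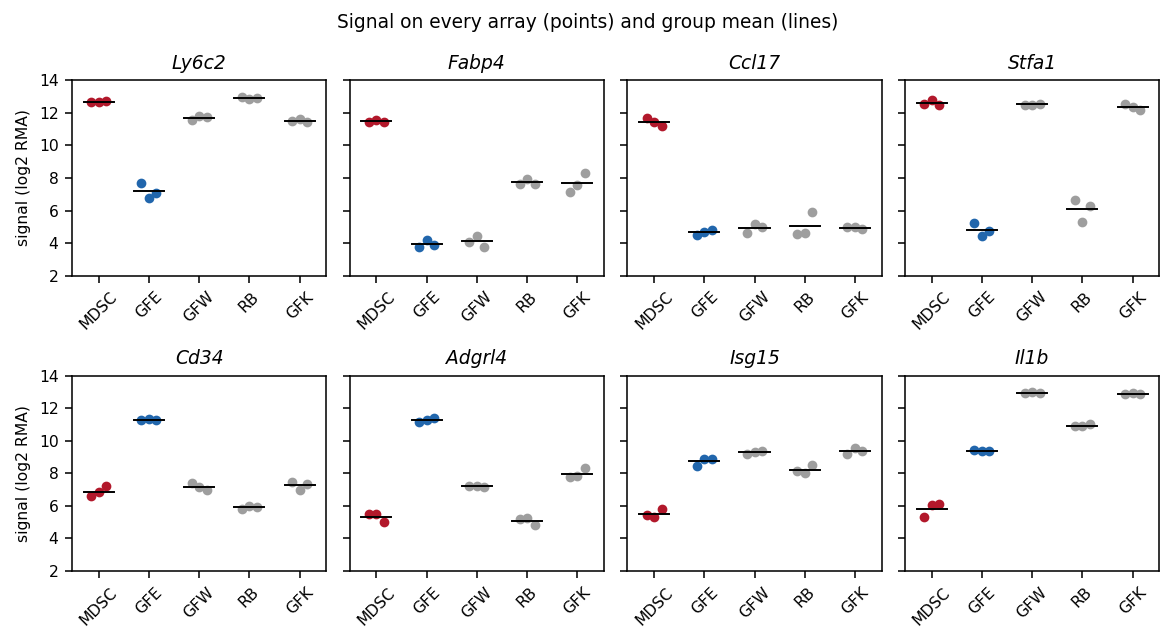
Log2 RMA signal (vertical axis) of 8 genes on each array (points) with the group mean (line), for MDSC (red), GFE (blue) and the uncultured GFW, RB and GFK arrays (grey). Ccl17 was high in MDSC only among these groups, Stfa1 was high in MDSC, GFW and GFK, Cd34 and Adgrl4 were highest in GFE, and Isg15 and Il1b were lowest in MDSC.

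The 3 largest differences towards MDSC, and 5 of the largest 15, were in stefins, cysteine protease inhibitors of granulocytic cells that lie together on chromosome 16. Stfa2l1 read 12.39, 12.53 and 12.43 in MDSC and 4.18, 3.65 and 3.59 in GFE, at least 401-fold apart (difference 8.65, SE 0.15). Cstdc4, Stfa1, Stfa3 and Csta3 were higher by at least 8.59, 7.79, 7.03 and 6.90 log2 units. Their sequences are close to each other, so the assignment of signal among them is uncertain. Stefin levels in MDSC were near those of uncultured cells of the GFW code: Stfa1 averaged 12.61 in MDSC, 12.52 in GFW and 12.35 in GFK, but 6.08 in RB and 4.82 in GFE. Ccl6, a CC chemokine of myeloid cells and also among the 15, read 11.91, 11.99 and 11.72 against 4.88, 5.10 and 4.65.

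Further genes of the top 15 were high in MDSC and lower in every uncultured group. Of these, Atp6v0d2, Mmp12 and Rnase2a passed the filter only through the MDSC arrays, so the filter itself favoured a difference in them. Atp6v0d2, a subunit of the proton pump of macrophages and osteoclasts, averaged 10.83 in MDSC and 3.72 in GFE, with 3.70 (GFW), 3.83 (RB) and 4.16 (GFK) without culture. Mmp12, macrophage elastase, averaged 10.52 against 4.50, at least 64.8-fold. Gpnmb, a glycoprotein of lipid-laden macrophages, averaged 11.91 against 5.95, which is 62.1-fold. Rnase2a, an eosinophil-associated ribonuclease with close relatives in the genome, averaged 10.10 against 3.91. Elane, neutrophil elastase, read 11.44, 11.38 and 11.19 against 5.18, 5.39 and 5.87, and its uncultured means lay between 6.76 and 7.23.

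Targets of IL-4 and IL-13 were mostly higher in MDSC. Of 26 members tested, 22 were called higher (against 16.6% of all genes) and 2 lower, with a median difference of 2.54. Without the 6 members that passed the filter only through the group where they were high (Ccl17, Mgl2, Ch25h, Slc7a2 and Rnase2a through MDSC, Fcer2a through GFE), 17 of 20 were higher and 1 lower, with a median of 2.23. Ccl17, which attracts CCR4-bearing T cells, read 11.66, 11.44 and 11.22 in MDSC and 4.49, 4.67 and 4.81 in GFE, at least 110-fold. Chil3 (Ym1), a chitinase-like lectin, read 12.52, 12.51 and 12.44 against 4.86, 6.09 and 6.21, 109-fold, but its uncultured means of 10.32 (GFW), 12.58 (RB) and 10.30 (GFK) were high too. Mrc1, the mannose receptor, read 11.15, 11.16 and 11.13 against 4.18, 5.36 and 5.45. Clec7a, the beta-glucan receptor dectin-1, was higher by at least 5.34.

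Other members followed at smaller sizes. Ccl24, the lectin Mgl2 and the arginine transporter Slc7a2 were higher by at least 3.91, 3.82 and 3.20, and E-cadherin (Cdh1) by 3.43. The transcription factors Batf3 (2.88), Irf4 (at least 2.32) and Egr2 (2.2) were called higher. The exceptions were Fcer2a, the low-affinity IgE receptor, lower by at least 2.39, and Tgm2, transglutaminase, at -0.46, which was not called without GFE replicate 2 (adjusted p 0.0512). Retnla and Chil4, 2 further members, did not pass the filter.

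Promoters of 3 of these genes are printed because their 250 bases before the annotated start hold a palindrome of the type that STAT proteins bind. The sequences are from RefSeq (GRCm38.p6), read 5' to 3' on the gene's strand, and capitals mark the matches.
Ccl17 (chr8:94810203-94810452, plus strand): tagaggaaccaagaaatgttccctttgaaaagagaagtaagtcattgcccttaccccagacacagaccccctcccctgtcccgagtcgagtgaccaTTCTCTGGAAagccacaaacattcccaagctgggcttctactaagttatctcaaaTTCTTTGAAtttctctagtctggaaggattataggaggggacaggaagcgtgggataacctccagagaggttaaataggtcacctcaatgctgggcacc
Clec7a (chr6:129472780-129473029, minus strand): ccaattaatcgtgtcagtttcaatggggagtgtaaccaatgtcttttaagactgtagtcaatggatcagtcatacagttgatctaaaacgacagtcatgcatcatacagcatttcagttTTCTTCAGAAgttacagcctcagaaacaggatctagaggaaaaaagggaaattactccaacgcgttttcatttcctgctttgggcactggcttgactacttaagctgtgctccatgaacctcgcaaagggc
Chil3 (chr3:106167565-106167814, minus strand): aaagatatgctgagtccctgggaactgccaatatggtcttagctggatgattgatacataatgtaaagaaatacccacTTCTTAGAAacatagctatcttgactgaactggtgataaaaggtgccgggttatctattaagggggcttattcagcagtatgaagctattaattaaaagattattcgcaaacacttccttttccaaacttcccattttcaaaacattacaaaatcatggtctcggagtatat
The STAT6 type searched was TTC, any 4 bases and GAA, and the STAT5 type was TTCNNNGAA. The fixed letters of each are their own reverse complement, so both strands were covered. Counted from the annotated start, Ccl17 had a STAT6 type match beginning at -154 and a STAT5 type match at -99. Clec7a had a STAT6 type match at -131 and Chil3 a STAT5 type match at -172. Windows from 250 bases before to 50 after the start were found for 15 of the 22 genes called higher. Of their 20 windows, 4 (20%) held the STAT6 type and 4 (20%) the STAT5 type, beside 6.95% and 8.3% of all 32851 promoter windows. The same Clec7a site was counted in overlapping windows. By gene, 3 of 15 held the STAT6 type and 4 of 15 the STAT5 type. These counts are small, and a match is a string of letters, not a binding site.

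Receptors for the added cytokines were called in both directions. Il13ra1, a chain of the IL-13 receptor, read 7.53, 7.29 and 7.70 in MDSC and 5.08, 5.29 and 5.36 in GFE, and was lower in both than without culture (11.48 in GFW). Il4ra, the partner chain, read 8.96, 8.91 and 8.90 against 8.78, 8.98 and 8.84 and was not called (adjusted p 0.782). The GM-CSF receptor genes Csf2rb (1.20), Csf2ra (1.05) and Csf2rb2 (0.87) were higher in MDSC. Csf3r, the G-CSF receptor, was lower in MDSC at 7.99, 7.86 and 8.03 against 9.76, 9.74 and 9.61, and both were under the 12.49 of GFW. Kit (-1.89) and Flt3 (-3.66), receptors of the GFE culture, were lower in MDSC. In all, 7 of 13 receptor genes were called higher and 4 lower.

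Feedback genes of cytokine signalling moved in both directions, 6 of 14 higher and 3 lower. Cish, a target of STAT5, read 10.82, 10.70 and 10.62 in MDSC and 7.71, 7.79 and 7.50 in GFE (difference 3.05, SE 0.16). Socs3 (1.69, and 0.72 on its other probe set), Osm (1.09) and Socs1 (1.05) were higher. Pim1 was higher by 1.41 on the probe set used and by 0.08 on its other one. Pim2 (-1.24) and Bcl6 (-1.09) were lower. Stat5a (0.13) and Stat3 (-0.26) were not called.

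Genes of lipid handling tied to PPAR gamma and GM-CSF were called higher for 12 of 18 and lower for 0, with a median of 1.32. Pparg itself, the receptor, read 10.32, 10.19 and 10.44 against 5.81, 5.62 and 5.37, 26.3-fold. Beside Fabp4, the cholesterol exporter Abcg1 (3.14), the scavenger receptor Olr1 (at least 2.61) and the lipid droplet protein Plin2 (2.59) were higher. Fabp5 had 4 probe sets, which gave 1.55 to 3.35. Genes of mitochondrial fatty acid oxidation in the list were not called: Cpt1a 0.24, Hadh -0.05 and Acadl -0.12.

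Lysosome genes were called higher for 16 of 17, with a median of 1.39, and Lamp2 (0.23) was the member not called. Cathepsins K (Ctsk, at least 2.90), B (Ctsb, 2.17) and Z (Ctsz, 1.79) and the saposin precursor Psap (2.10) led after Atp6v0d2. Macrophage genes were more mixed, with 11 of 20 higher and 1 lower. Msr1 (at least 3.73) and Trem2 (2.90), receptors for modified lipid, and Mertk (1.92), a receptor for dying cells, were higher. Marco, a scavenger receptor, was lower (-2.13), and C1qa (0.27), Maf (0.46) and Apoe (-0.15) were not called. Matrix and protease genes were higher for 12 of 17 and lower for 2, with a median of 1.29. Without the 2 members that passed the filter only through the MDSC arrays, 10 of 15 were higher and 2 lower, with a median of 0.86. Plau, urokinase, read 9.61, 9.73 and 9.89 against 5.61, 5.93 and 6.12, and its receptor Plaur was higher by 3.75, while Mmp14 (-0.94) and Fn1 (-0.61) were lower.

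In the neutrophil and later granule list 18 of 21 were called higher, with a median of 2.85, the highest of the 42 lists. Ltf, lactoferrin, read 11.09, 11.30 and 11.22 against 5.42, 5.64 and 5.35, 53.1-fold, and exceeded the uncultured means of 8.33 to 8.52. S100a8 read 12.76, 12.85 and 12.79 against 7.67, 7.89 and 7.62, and S100a9 was higher by 4.84. These subunits of calprotectin were also near 13 without culture in GFW (12.97 and 13.06). Cebpe, the regulator of secondary granules, was higher by 3.62. Csf3r was the member called lower, and Mmp9 (0.31) and Padi4 (0.29) were not called.

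Ly6g, the antigen of mature mouse neutrophils, was among the 18 called higher, but its signal in MDSC was far under that of GFW and GFK. It read 5.83, 5.78 and 5.78 in MDSC and 4.13, 4.17 and 4.36 in GFE, while GFW averaged 12.19 and GFK 12.08 although their sort removed Ly6G+ cells. Primary granule genes, made at the promyelocyte stage, were higher for 9 of 10, with a median of 2.31. Mpo, myeloperoxidase, read 11.44, 11.37 and 11.32 against 7.54, 7.51 and 7.36, 15-fold, and Prtn3 and Ms4a3 were higher by 3.98 and 3.97. Srgn (-0.19), the granule proteoglycan, was not called.

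Monocyte genes split by subset between MDSC and GFE. For classical monocytes 11 of 14 were higher (against 16.6% of all genes) and 3 lower. The mean level of the list was 8.47 to 8.65 on MDSC arrays and 7.21 to 7.30 on GFE arrays. Without culture it was 8.64 to 8.74 (GFW), 8.63 to 8.88 (GFK) and 11.27 to 11.39 (RB), so MDSC were not above these groups. Ccr2, the receptor for Ccl2, read 9.12, 8.85 and 9.06 against 6.10, 5.45 and 6.09. Vcan (at least 4.86), Klf4 (2.97) and Irf8 (1.51, and 0.88 on its other probe set) were higher too. The Ms4a family members Ms4a6c (-3.83) and Ms4a4c (at least 3.52 towards GFE) were lower, and so was Fn1 (-0.61). For patrolling monocytes 5 of 10 were lower (against 18.9% of all genes) and 2 higher, Cebpb (1.31) and Ace (at least 0.44). Ace was not called without MDSC replicate 3, without any 1 of the GFE arrays or after repeated quantile normalisation (adjusted p 0.0592 to 0.195). Cx3cr1, the fractalkine receptor, read 7.06, 6.94 and 6.41 against 9.72, 9.57 and 9.70, and Pou2f2 (-2.28), Itgal (-1.17), Spn (-0.74) and Nr4a1 (-0.73) were lower.

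Recognition receptors were mostly higher in MDSC than in GFE, but not always than without culture. The mean level of the Toll-like receptor list was 7.81 to 7.99 on MDSC arrays and 9.10 to 9.67 on uncultured arrays. For Fc gamma receptors these levels were 9.48 to 9.57 and 9.86 to 10.42, and for the phagocyte oxidase 10.68 to 10.71 and 10.71 to 11.03. C-type lectins ran the other way, with 8.67 to 8.73 on MDSC arrays and 7.84 to 8.59 on uncultured arrays. C-type lectins were higher for 13 of 15 with a median of 2.39, among them Clec4b2 (at least 3.30), Clec5a (3.08) and Clec4n (2.39), and Clec4d (-0.68) was lower. Without the 2 members that passed the filter only through the MDSC arrays, 11 of 13 were higher and 1 lower, with a median of 1.72. The Clec4a and Clec4b copies are alike, so their split is uncertain. Fc gamma receptor genes were higher for 5 of 6: Fcgr3 read 10.43, 10.41 and 10.60 against 7.04, 7.03 and 6.97. The inhibitory Fcgr2b was higher by 1.54, and Syk (0.08) was not called. Toll-like receptor genes divided into 9 higher and 3 lower of 13. Tlr13, a sensor of bacterial ribosomal RNA, was higher by at least 4.35, Tlr8 by at least 3.78 and Tlr4 by 1.74, while Tlr1 (-2.91) and Tlr9 (-1.41) were lower. Of the phagocyte oxidase, 4 of 5 genes were higher, led by the catalytic chain Cybb at 10.83, 10.92 and 10.89 against 7.83, 7.96 and 7.94. With any 1 array left out, 3 oxidase genes were called higher.

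Progenitor genes made the list with the lowest median, -2.42. Of 22 members, 20 were called lower in MDSC (against 18.9% of all genes), Cd93 was higher (0.80) and Tal1 (-0.39) was not called. Angpt1, a ligand for Tie2 made by stem cells and stroma, read 4.22, 4.38 and 4.57 in MDSC and 9.72, 9.65 and 9.63 in GFE, at least 38.7-fold. A second Angpt1 probe set gave -0.92. Meis1 and Hoxa9, transcription factors that act together in early progenitors, read 6.10, 6.08 and 6.25 against 9.75, 9.94 and 9.97, and 5.42, 5.55 and 5.71 against 9.02, 9.04 and 8.85. Without culture both were near the MDSC level, with means of 5.81 to 6.63. Sox4 (-4.0), Cd27 (-3.32), Bcl11a (-3.12) and Gata2 (-2.72) were lower too.

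Kit and Myb were lower in MDSC without being low. Kit, the SCF receptor, read 8.94, 8.81 and 9.14 against 10.87, 10.89 and 10.79, while uncultured cells averaged 11.43 (GFW), 11.23 (GFK) and 5.52 (RB). Myb, a factor of dividing progenitors, read 8.99, 9.14 and 9.06 against 11.18, 11.08 and 11.03, and the uncultured means ran from 5.68 to 7.78. Both cultures were thus above every uncultured group for Myb.

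**Figure D3:**
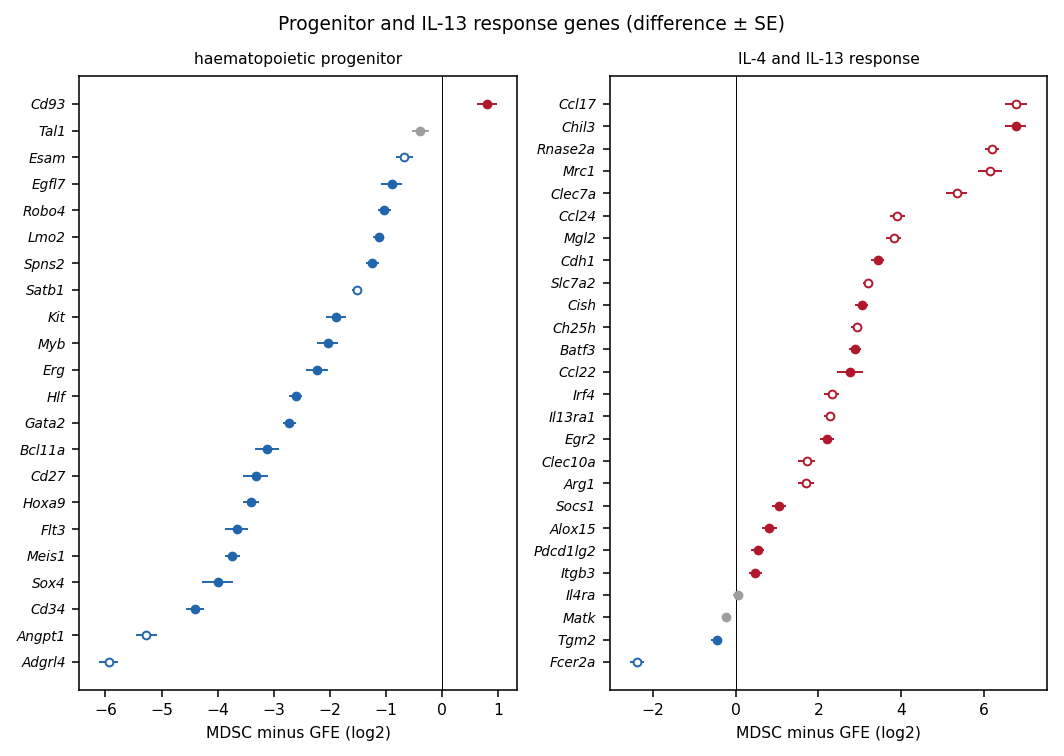
Difference MDSC minus GFE (log2, horizontal axis, bars are SE) for the tested members of the progenitor list (left) and the IL-4 and IL-13 response list (right). Red is called higher, blue called lower, grey not called, and open circles are lower bounds. All but Cd93 and Tal1 of the 22 progenitor genes are blue, and 22 of the 26 response genes are red.

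The remaining genes of the 15 lowest had varied roles. Ctla2a, a cathepsin inhibitor, was lower by at least 38.3-fold and its near copy Ctla2b by 4.18 log2 units, so their signals may be shared. Adgrg1, an adhesion receptor of stem cells, read 5.63, 5.92 and 5.77 against 10.78, 10.98 and 10.73. The small GTPase Mras, Myct1 and Zdhhc15 were lower by at least 4.70, 4.08 and 4.32. Spic, a factor of red pulp macrophages, was lower by at least 4.19, and Cd96, a receptor of T and NK cells, by at least 4.06. Mras, Myct1, Zdhhc15, Ctla2b and Cd96 passed the filter only through the GFE arrays, so the filter itself favoured a difference in them. Ms4a6b (-4.58) and Tmem176b (-4.41) were also higher in the uncultured groups than in MDSC, with Ms4a6b means of 8.14 to 11.08.

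Interferon-induced genes were lower in MDSC. Of 12 type I genes 10 were called lower and 0 higher (median -1.56). Isg15, a ubiquitin-like modifier, read 5.44, 5.34 and 5.78 against 8.46, 8.86 and 8.88. Oasl2 was lower by at least 3.72, Ifit1 by 2.63 log2 units and Irf7, the amplifying transcription factor, by 1.97. Ifit3 (-0.14) and Mx1 (-0.62) were not called. Rtp4, another interferon-induced gene, read 5.05, 4.81 and 6.09 against 10.12, 10.10 and 10.14. Uncultured means were nearer GFE than MDSC: 9.29 (GFW), 8.21 (RB) and 9.36 (GFK) for Isg15. The summed signal of the list, as a mean per gene, was 6.38 to 6.48 on MDSC arrays, 8.09 to 8.15 on GFE arrays and 8.48 to 9.05 on RB arrays.

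The interferon gamma list gave 10 of 15 lower and 2 higher (median -1.54). The guanylate-binding protein Gbp3 (-2.68), the GTPases Igtp (-2.40) and Irgm2 (-2.29), the peptide transporter Tap1 (-1.61) and the chemokine Cxcl10 (-2.45) were lower. Socs1 and Ciita (0.63) were the members called higher, and Irf1 (-0.31) and Cxcl9 (-0.28) were not called.

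Inflammatory cytokine genes were lower for 8 of 16 and higher for 4. Il1b read 5.29, 6.06 and 6.11 in MDSC against 9.41, 9.38 and 9.38 in GFE, 11.9-fold, and GFW averaged 12.95. Ptgs2, cyclooxygenase-2, read 6.26, 5.49 and 5.57 against 9.37, 9.45 and 9.39. Nfkbiz (-2.93), Il18 (-1.82) and Il6 (at least 1.19 towards GFE) were lower. The antagonists ran opposite to Il1b. Il1rn, the soluble receptor antagonist, was higher by at least 3.03 and Il1r2, the decoy receptor, read 9.86, 9.98 and 9.91 against 4.64, 4.59 and 4.27. Without culture the group means ran from 10.93 to 12.95 for Il1b, 7.56 to 10.56 for Il1rn and 9.04 to 11.42 for Il1r2, so of the 5 groups MDSC had the lowest Il1b mean and GFE the lowest means of the antagonists. Il1a was higher by at least 1.57.

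Chemokine genes had a median of 0.00 and a mean of 1.33, with 7 of 19 higher and 6 lower. Without Ccl17, Ccl12 and Ppbp, which passed the filter only through the MDSC arrays, 5 of 16 were higher and 6 lower, with a median of -0.24 and a mean of 0.92. Ccl2, a ligand of Ccr2, read 11.28, 11.40 and 11.48 against 6.91, 5.90 and 6.03, and Ccl7 (4.11) and Ccl12 (at least 3.70), further ligands of that receptor, were higher beside Ccl17, Ccl22 (2.77) and Ccl24. Ccl5 (-2.03), Ccl9 (-1.08), Cxcl16 (-0.83) and Ccl3 (-0.77) were lower with Cxcl10. Of receptors, 8 of 14 were higher, with Ccr1 (at least 3.90) and Cxcr2 (2.81) beside Ccr2 and the integrin chains Itgax (2.37) and Itgb2 (1.81), and 4 were lower.

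Genes named for suppressor function were called higher than in GFE for 14 of 23 (60.9%, against 16.6% of all genes). They were called lower for 4 (17.4%, against 18.9% of all genes), with a median of 0.59, and 2 of those higher are the calprotectin subunits. The mean level of the list was 8.74 to 8.81 on MDSC arrays, 7.75 to 7.85 on GFE arrays and 8.94 to 9.36 on uncultured arrays. Arg1, arginase 1, read 6.71, 6.29 and 7.15 in MDSC and 4.99, 5.16 and 4.93 in GFE, at least 3.24-fold (adjusted p 4.63e-06), with uncultured means of 5.48 to 5.80. Arg2, the mitochondrial arginase, read 8.29, 8.09 and 8.37 against 5.39, 5.78 and 5.89, with uncultured means of 10.65 (GFW), 10.70 (GFK) and 7.14 (RB). Nos2, the inducible nitric oxide synthase, read 6.14, 6.17 and 6.26 against 6.57, 6.68 and 6.64, a difference of -0.44 (SE 0.12, adjusted p 0.00772). Over nitric oxide and arginine genes as a whole 4 of 15 were higher (26.7%, against 16.6% of all genes) and 3 lower (20%, against 18.9%). Without Slc7a2, which passed the filter only through the MDSC arrays, 3 of 14 were higher and 3 lower, so both counts were near the shares of all genes. The median of 0.04 turned to -0.01 without GFE replicate 2. The ectonucleotidases Entpd1 (1.14) and Nt5e (at least 1.62), Tgfb1 (0.59), Lgals3 (2.49) and Vsir (1.73) were higher. Cd274 (PD-L1) read 8.70, 8.37 and 8.56 against 8.49, 8.71 and 8.70 and was not called, as were Ido1 (-0.10) and Il10 (-0.46).

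Ligands for T cells were called in both directions, 6 of 15 higher and 4 lower, with a median of -0.06 and a mean of 0.39. Cd80 read 8.42, 8.35 and 8.49 against 6.07, 6.26 and 5.66. Tnfsf4 (OX40 ligand) read 5.84, 5.71 and 5.76 against 8.24, 8.62 and 8.25, with uncultured means of 4.54 to 4.66, and Icosl was lower (-1.36). Eicosanoid synthesis genes were higher for 9 of 14 and lower for 3. Alox5, 5-lipoxygenase, read 10.41, 10.38 and 10.55 against 6.30, 6.02 and 6.28, and its second probe set gave 4.04. Lta4h (1.42) and Ltc4s (0.84) of the leukotriene route were higher, while Ptgs2 and Pla2g4a (-1.45) were lower.

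Mitosis genes were mostly higher in MDSC, and DNA replication genes were called in both directions. Of 23 mitosis genes 20 were called higher and 0 lower (median 0.84). Plk1, a mitotic kinase, read 10.06, 10.01 and 10.18 against 7.92, 8.30 and 8.11, Aurka was higher by 1.60 and Mki67 read 10.69, 10.82 and 10.77 against 9.89, 9.84 and 9.91. Top2a (0.08), Kif11 (0.41) and Nusap1 (0.46) were not called. Replication genes were higher for 3 of 21 and lower for 6, with a median of -0.09 and a mean of 0.01. Ccne1 (1.31), Rrm2 (0.81) and Cdc45 (0.79) were higher, and Pola1 (-0.70) and Rfc3 (-0.48) lower. The 6 lower calls became 2 without MDSC replicate 1 or 2 and 3 without GFE replicate 1, 2 or 3. Both cultures exceeded all uncultured groups. The mean level of the mitosis list was 9.56 to 9.65 on MDSC arrays, 8.64 to 8.78 on GFE arrays and 6.83 to 7.25 on the others, and that of replication was 9.10 to 9.19, 9.12 to 9.14 and 6.71 to 7.05.

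**Figure D4:**
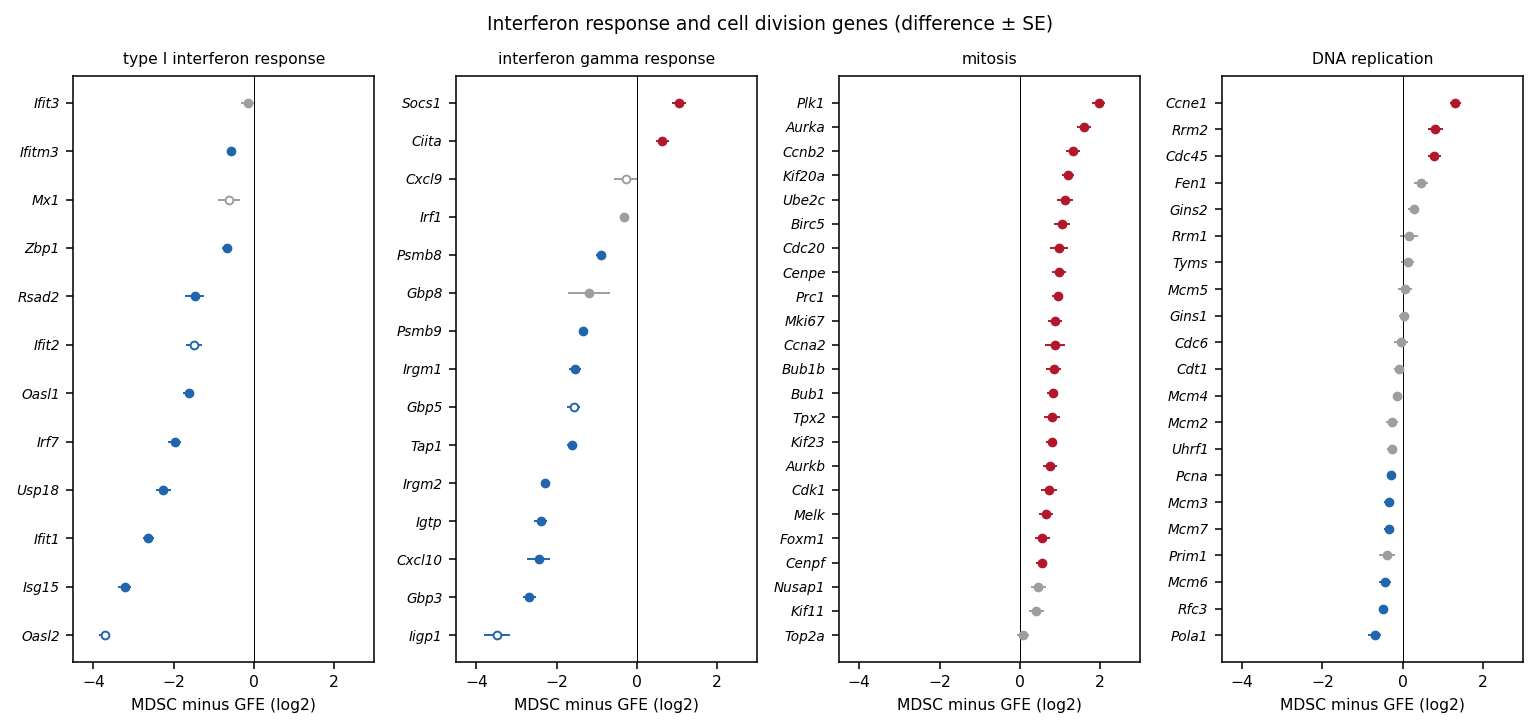
Difference MDSC minus GFE (log2, horizontal axis, bars are SE) for the tested members of 4 lists: type I interferon response, interferon gamma response, mitosis and DNA replication. Red is called higher, blue called lower, grey not called, and open circles are lower bounds, so that interferon panels are mostly blue, the mitosis panel mostly red and the replication panel mostly grey.

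Growth and metabolism lists shifted less. Ribosome biogenesis and Myc targets were lower for 8 of 18 and higher for 2, of which 1 remained without MDSC replicate 1, GFE replicate 1 or GFE replicate 3, with Nop58 (-0.82), Dkc1 (-0.69) and Myc (-0.47) lower. Cell cycle exit genes were higher for 7 of 16 and lower for 3: the Myc antagonists Mxd1 (1.65) and Mxi1 (1.48) and Cdkn2d (1.34) were higher, and Ccnd2 (-0.88) and Cdkn1b (-0.65) lower. Glycolysis genes were higher for 9 of 16 and lower for 2, with Hk3 (1.98) and Slc16a3 (1.49) higher and Vegfa (-1.35) lower. Cholesterol genes were lower for 7 of 12 and higher for 1, Mvd (0.44), which was not called without MDSC replicate 3, GFE replicate 2 or GFE replicate 3. Hmgcs1 read 10.44, 10.26 and 10.18 against 11.50, 11.47 and 11.53, and both cultures were above the uncultured means of 7.70 to 8.36. Integrated stress response genes were lower for 10 of 16 and higher for 1 (Atf3, 1.29), with the cystine carrier Slc7a11 (-1.95), Trib3 (-1.84), Chac1 (-1.63) and Asns (-1.44) lower. Immediate early genes were higher for 8 of 18 and lower for 5, with Jun (1.78) higher and Egr1 (-1.60) lower.

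Myeloid transcription factors were higher for 19 of 26 and lower for 4. Beside Pparg, Cebpe, Klf4, Batf3 and Irf4, Id1 (2.79), Id2 (2.36), Bhlhe40 (2.19), Cebpb (1.31) and Spi1 (0.39) were higher, and Batf (-0.73) and Cebpd (-0.67) lower. MHC class II genes were higher for 8 of 10 and lower for 2 (median 0.61). The 8 higher calls became 6 without MDSC replicate 1 or 3 or GFE replicate 1 or 2, and after repeated quantile normalisation. When tested against a change of 1.5-fold, 2 remained higher. The lower calls became 0 without MDSC replicate 1 or GFE replicate 2, and 1 without MDSC replicate 2 or GFE replicate 3. H2-DMb2 (1.51), Ctss (1.39), H2-Eb1 (0.94) and H2-Aa (0.85) led. Dendritic cell genes were higher for 7 of 15 and lower for 3: Itgax and Ly75 (1.26) were higher and Tcf4 (-1.48), Ccr7 (-1.01) and Bst2 (-0.79) lower.

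Markers of other cell types were measured because bulk cultures can hold them, and their part in the results above was not tested. Eosinophil genes were higher for 6 of 7, and 2 of those 6 remained under the stricter filter on low signal. Prg2, eosinophil major basic protein, read 9.41, 8.78 and 8.67 against 5.16, 5.98 and 5.26, and Ear6 was higher by at least 2.93, while Siglecf (0.07) was not called. The mean level of this list was 5.94 to 6.21 in MDSC and 4.83 to 5.0 in GFE. Mast cell and basophil genes were higher for 3 of 6 and lower for 2: the basophil protease Mcpt8 (2.01) and Cpa3 (at least 1.55) were higher and Gata2 and Slc18a2 (-0.76) lower. Of the 14 members with a probe set, 8 did not pass the filter, among them Fcer1a, Ms4a2, Tpsb2 and Mcpt4. Cpa3 passed it only through the MDSC arrays. Megakaryocyte genes were higher for 3 of 10 (30%, against 16.6% of all genes) and lower for 2 (20%, against 18.9%). Vwf read 8.16, 8.10 and 8.41 against 5.83, 5.69 and 5.70, and Cd9 gave 2.16 on the probe set used and 0.17 on the other, while Gp9 (-1.18) was lower and Pf4 (-0.66) and Itga2b (-0.16) were not called.

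For T and NK cells 3 of 7 genes were higher and 0 lower: Thy1 (0.71), Nkg7 (1.17), also a granule gene here, and Il7r. Il7r, the IL-7 receptor, passed the filter only through the MDSC arrays, at 9.21, 8.92 and 9.05 against 4.46, 4.41 and 4.25. Cd4 (-0.27) and Cd8a (-0.14) were not called. For B cells 1 of 5 was lower, Cd79b (-1.94), and 0 were higher. For erythroid cells 1 of 6 was higher, Tfrc (0.65), the transferrin receptor of dividing cells, and 1 was lower, Car2 (-3.55). The share called lower in B cell genes (20%) and both erythroid shares (16.7%) were near those of all genes, 18.9% lower and 16.6% higher. The median of the B cell list (0.07) and that of the erythroid list (0.05) had the opposite sign to their means (-0.34 and -0.45), and so had cytokine receptors (0.57 and -0.01) and replication.

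**Figure D5:**
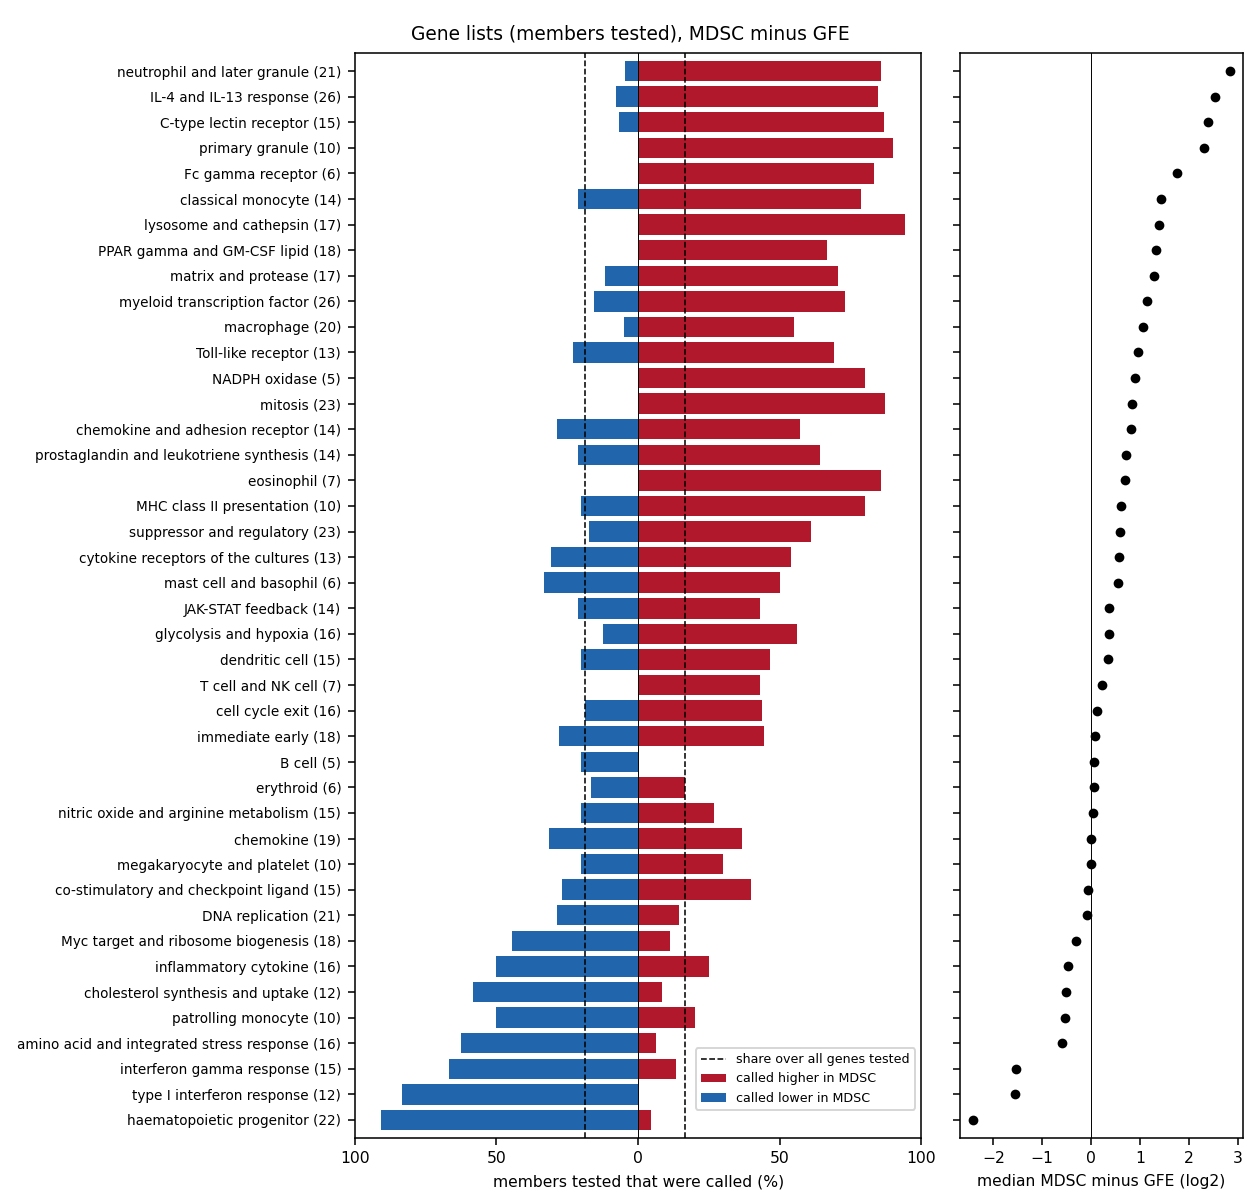
Share of tested members called higher (red, right) or lower (blue, left) in MDSC for each of 42 gene lists, with the number tested in brackets, beside the list's median difference (log2, right panel). Dashed lines mark the shares over all genes tested, 16.6% higher and 18.9% lower. Granule, IL-4 and IL-13, lectin and lysosome lists lie at the top and progenitor and interferon lists at the bottom.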

How the data were processed

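RNA (6 ug of total RNA per sample, per the labels' protocols) was labelled as biotin cRNA and read on single-colour Affymetrix arrays, 1 per sample. The authors deposited log2 values made by RMA with the oligo package, per the submitters' processing notes, with versions not given in the sources used here. RMA corrects background, normalises quantiles across arrays and sums probes, so levels of different genes are not compared.

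Of 41345 probe sets, 23521 had a single symbol, 1814 several and 16010 none, and 23328 matched RefSeq (GRCm38.p6) with 0 symbols changed. For 1082 genes with several probe sets the one with the highest mean over 15 arrays was taken. A gene was tested if it lay above the array's 40th percentile (5.34 to 5.58) on at least 3 arrays, which removed 7358. limma 3.58.1 in R 4.3.3 fitted all 15 arrays with group means as coefficients (residual degrees of freedom 10, prior 5.33), with 2-sided moderated tests adjusted by Benjamini-Hochberg over 14822 genes, 6334 of which had an unadjusted p under 0.05. The code was tested on simulated data. No arrays were identical. Python 3.11.15 with pandas 2.3.3 and matplotlib 3.10.9 prepared tables and figures.

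The members and the 42 lists (696 entries, 51 without a usable probe set, some genes in several lists) were chosen with earlier results of these data known. Genes named were the markers, the 15 genes with the largest called differences in each direction and arrays not overlapping, up to 4 called members per list and direction, and further members with their values. Predicted models (0 and 2 among the largest changes) were counted, not named. Alternatives changed the arrays fitted, the filter, scaling, probe choice, the fold tested, the prior and the replicate block, and left out each array.

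Title numbers 1 to 3 recur in both groups. Deviations of same-numbered arrays correlated at 0.0279, -0.091 and -0.0905, so the numbers were not taken to pair the arrays.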

Additional observations from a re-analysis of the deposited data

How the results depend on the processing

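No gene among the 407 called genes followed changed direction under any alternative run, and with the 60th percentile filter, or the filter applied to the 6 arrays, 0 of those still tested lost their call, while 21 and 5 were no longer tested. Testing against a change of 1.5-fold (limma's treat) in place of 0 left 774 genes higher and 712 lower and lost 159 of the 407. Leaving out 1 array at a time gave 2144 to 2229 higher and 2293 to 2510 lower, and 40 of the 407 lost their call at least once. With the title number as a replicate block on the 6 arrays, 2719 genes were higher and 3163 lower, and 6 of the 407 were lost. Subtracting each array's median and repeating quantile normalisation each lost 8, and no filter lost 9. Under the stricter filter, inflammatory genes called higher fell from 4 to 2. List medians changed sign for erythroid genes (stricter filter), B cell genes (stricter filter, filter on the 6 arrays, without GFE replicate 1 or 2) and T and NK cell genes (without GFE replicate 2). Counts of calls moved in other lists too, and not all such moves are given here. Oxidase genes called higher fell from 4 to 3 with any 1 array left out. Suppressor genes called higher fell from 14 to 12 without GFE replicate 3. In the primary granule list 1 gene was lower after repeated quantile normalisation or with a trend and robust prior. Without GFE replicate 1, 2 macrophage genes in place of 1 were lower. Precision is limited by 3 arrays per group, and signals under the 40th percentile give bounds only.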

Other observations

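Genes picked here with their values already seen had large differences outside the lists. In MDSC the endothelial lipase Lipg averaged 10.95 against 5.2 in GFE (at least 5.75 log2 units, adjusted p 4.10e-11). Cyp11a1, the enzyme that starts steroid synthesis from cholesterol, read 9.78, 9.83 and 9.83 against 4.97, 5.13 and 5.15, and its uncultured means lay between 4.71 and 5.08. The GFE values and uncultured means of Cyp11a1 lay under the filter's cut (5.34 to 5.58), so the filter itself favoured a difference in it. The coagulation factor genes F10 (4.48) and F7 (3.94) were higher in MDSC, as was Anpep (3.02), the aminopeptidase CD13. Hp, haptoglobin, was higher by 5.28 and averaged 12.69 in GFW.

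On the GFE side, Mecom, a stem cell transcription factor, read 7.68, 7.69 and 7.26 against 4.85, 4.69 and 4.71 in MDSC, and Emcn, a sialomucin of endothelium and stem cells, was lower in MDSC by at least 3.51. The RNA-binding protein gene Msi2 read 11.96, 11.90 and 11.96 against 9.22, 9.37 and 9.26. Il1r1, the signalling IL-1 receptor, read 9.52, 9.41 and 9.39 against 5.98, 5.64 and 6.22, opposite to the decoy Il1r2. The cytokine chain Il12a (-2.68) and Stat4 (-2.44) were lower in MDSC. All adjusted p-values (limma) of these genes were at or under 3.51e-08, but the genes were picked by their values.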
